A study of Mus musculus with 6 samples.

Results

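The ephrin and Eph receptor genes described here are 5 ephrins (Efnb1, Efnb2, Efnb3, Efna3 and Efna5) and 5 Eph receptors (Epha4, Epha5, Epha7, Ephb1 and Ephb2), taken by gene symbol from 25896 symbols in the hippocampal mRNA tables. One transcript stands for each gene, the one with the most counts on average. None of the 10 differed between genotypes at an adjusted p below 0.05 over all genes. Efnb1 had the difference with the smallest p: it was lower in all 3 Dicer1-ifKO libraries, at 5.45 ± 0.198 against 7.32 ± 0.770 CPM in WT (SD, n = 3 each; CPM is counts per 1000000 counts of a library). Its Benjamini-Hochberg adjusted p was 0.233 by the quasi-likelihood test of edgeR.

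Dicer1-ifKO mice were C57BL/6 males with Dicer1 flox/flox alleles and the transgene CaMKIIa-creERT2, a Cre recombinase that tamoxifen activates and that the CaMKIIa promoter, active in excitatory forebrain neurons, drives. WT mice carried Dicer1 flox/flox and no Cre. Both groups received tamoxifen, were 3 months old and were killed 3 weeks after its administration. Each library was made from the pooled hippocampal RNA of 3 mice, with 3 libraries per genotype that the labels call biological replicates. The design sets hippocampal mRNA after removal of Dicer1, the ribonuclease that cuts microRNA precursors, against tissue that keeps it. Since WT mice had no Cre, loss of Dicer1 and presence of the active recombinase cannot be told apart. Glia, interneurons and vessel cells of the Dicer1-ifKO hippocampus lie outside the promoter's cell type and contribute RNA to every library.

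Ephrins are ligands held on the cell surface, and Eph receptors are the receptor tyrosine kinases that bind them on a touching cell. Ephrin-A proteins are fixed to the membrane by a lipid anchor, whereas ephrin-B proteins cross it and end in a short tail that binds PDZ-domain proteins. Signals pass into both cells, the receptor's side being called forward and the ephrin's side reverse. In the hippocampus the system is known for guiding axons during development and, in the adult, for shaping dendritic spines and synaptic plasticity.

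Dicer1 itself had 58.2, 62.9 and 58.0 CPM in Dicer1-ifKO and 55.6, 62.0 and 55.8 CPM in WT, so the groups overlapped (adjusted p 0.849 in edgeR). Its counts cover the whole gene and so do not check the deletion of the floxed part. Libraries held 11832791 to 20677846 counts over representative transcripts. WT replicate 1, the shallowest, stood apart: its deviation from the mean of the 6 libraries followed transcript length across 16317 genes (Spearman's rho -0.265; genes are not independent replicates). The difference between genotypes was also related to length across genes (rho 0.204, and 0.109 without that library). Of the 10 members, 6 (Efnb2, Epha4, Epha5, Epha7, Ephb1 and Ephb2) were 4626 bases or longer, the longest of 5 equal classes, in which the median log2 fold change was 0.04. Efnb1, Epha4 and Epha7 are given below with and without it.

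Because Dicer1 makes microRNAs, the 3′ untranslated regions (UTRs) of the 10 genes were searched for 7-mers complementary to bases 2 to 8, the seed, of 11 brain microRNAs. The seeds that matched most members are shown here, with the seed in capitals.
miR-128-3p: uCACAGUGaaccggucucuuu
miR-137-3p: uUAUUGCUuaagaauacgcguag
miR-218-5p: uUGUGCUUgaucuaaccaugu
The miR-128-3p match CACTGTG was found in 5 members (Efnb3, Efna5, Epha5, Ephb1 and Ephb2) and in 21% of 13660 tested genes with an annotated 3′ UTR. The miR-137-3p match AGCAATA was also found in 5 members (Efna3, Epha4, Epha5, Epha7 and Ephb2), against 9.85% of genes. The miR-218-5p match AAGCACA lay in 4 members (Efnb1, Efnb2, Epha7 and Ephb2), against 14.4% of genes. Only the UTR's own strand was searched.

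All 10 members held at least 1 of the 11 matches, as did 64.8% of genes, and all 10 UTRs were longer than the median of 1055 nt. Their lengths ran from 1251 nt in Epha5 to 7783 nt in Ephb2. The remaining seeds matched fewer members: miR-138-5p (CACCAGC) and miR-30a-5p (TGTTTAC) matched 3 each, against 13.4% and 14.7% of genes. miR-9-5p (ACCAAAG), miR-132-3p (GACTGTT) and miR-125b-5p (CTCAGGG) matched 2 each, against 13.4%, 11.7% and 14.3%. let-7a-5p (CTACCTC) and miR-29a-3p (TGGTGCT) matched 1 each, against 9.78% and 14.1%, and miR-26a-5p (TACTTGA) matched 0, against 10.2%.

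A choice of sites in the genes whose values are discussed most is given with 11 bases on each side and the 7-mer in capitals. They are the single match of Efnb1, that of Efnb2 to the same seed, the 3 miR-137-3p matches among the 7 of Epha7, and the miR-137-3p match of Epha4, which also held 1 to miR-138-5p.
Efnb1, miR-218-5p, chrX:99148532-99148538, plus strand: gttctagtacaAAGCACAcacacccccca
Efnb2, miR-218-5p, chr8:8619295-8619301, minus strand: atgtcaaagcaAAGCACAcatggcccacc
Epha7, miR-137-3p, chr4:28964780-28964786, plus strand: aaaaaaaagaaAGCAATAatgatccataa
Epha7, miR-137-3p, chr4:28965387-28965393, plus strand: tgaatttcataAGCAATAattaaatgtgt
Epha7, miR-137-3p, chr4:28966488-28966494, plus strand: ctttttccttcAGCAATAtacctcatctg
Epha4, miR-137-3p, chr1:77367595-77367601, minus strand: aaagttctagaAGCAATAttttcactcct
Coordinates are GRCm38 and give the 7-mer. Efna3 held a miR-30a-5p match directly beside a miR-137-3p match, with no base between them.
Efna3, miR-30a-5p, chr3:89314985-89314991, minus strand: gcccctcccccTGTTTACagcaataagca
Ephb2 held 18 of the 39 matches in all, but only 3 of its 18 lay within the UTR of the shorter transcript Ephb2-002. The 6069 bases beyond its end at 136653608 were thinly covered: Ephb2-001 had 156 counts more than Ephb2-002 of its 1433 counts in the Dicer1-ifKO libraries, and 108 more of its 1112 counts in the WT libraries. A match is a description of letters, and microRNA levels were not analysed here.

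Among the ephrins, Efnb1 encodes ephrin-B1, a transmembrane ligand whose gene is X-linked (chromosome X, 99136130 to 99148991). It had 5.58, 5.55 and 5.22 CPM in Dicer1-ifKO replicates 1, 2 and 3, from 86, 100 and 107 counts, against 8.09, 6.55 and 7.32 CPM in WT replicates 1, 2 and 3, from 95, 104 and 119 counts. The groups did not overlap, and the Dicer1-ifKO libraries lay close together while WT replicate 1 was the highest of the 6. Its log2 fold change was -0.42 (SE 0.13, 95% interval -0.69 to -0.14), a fold of 0.749, with an unadjusted p of 0.00477, rank 356 of 17405 genes, and an adjusted p of 0.233 in edgeR. With a length offset per library it was -0.41, and without WT replicate 1 it was -0.35, with an adjusted p of 0.484 in edgeR (0.133 to 0.512 over its alternatives). In bulk tissue, fewer cells of a type and less RNA per cell cannot be told apart.

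Marker lists give the setting of that value. The summed level of 5 astrocyte markers, all tested, was 1013 to 1037 CPM in Dicer1-ifKO against 1040 to 1067 CPM in WT. Summed dentate granule cell markers (5 of 5 tested) lay at 288 to 316 CPM in Dicer1-ifKO and at 324 to 339 CPM in WT. Both sums were thus lower in every Dicer1-ifKO library, as Efnb1 was, and their part in its value was not tested. Neither separation held when 1 gene was left out. Without Gfap the other 4 astrocyte markers overlapped, at 769 to 793 CPM in Dicer1-ifKO and 786 to 799 CPM in WT, and Slc1a3 and Aldh1l1 were at log2 fold changes of 0.01 and 0.02. Without Calb1 the other 4 granule cell markers overlapped, at 183 to 206 CPM in Dicer1-ifKO and 192 to 212 CPM in WT. Summed excitatory neuron markers were higher, at 4662 to 4968 CPM in Dicer1-ifKO and 4499.6 to 4605 CPM in WT, and this was nearly all Camk2a: without it they overlapped, at 1166 to 1255 CPM in Dicer1-ifKO and 1181 to 1241 CPM in WT.

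Efnb2, which encodes the transmembrane ligand ephrin-B2, known from arterial endothelium as well as neurons, lies on chromosome 8 (8617434 to 8660773). It had 29.5, 26.1 and 30.7 CPM in Dicer1-ifKO and 27.5, 28.3 and 28.7 CPM in WT. The WT values lay inside the range of the Dicer1-ifKO values. This gave a log2 fold change of 0.03 (95% interval -0.12 to 0.19).

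Efnb3, which encodes ephrin-B3, a ligand known at hippocampal synapses, had the highest CPM of the 5 ephrins (chromosome 11, 69554092 to 69560205). It had 108, 107 and 113 CPM in Dicer1-ifKO and 126, 102 and 109.5 CPM in WT. WT held both the highest and the lowest library, so the groups overlapped throughout. This was a log2 fold change of -0.03 (95% interval -0.16 to 0.10).

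Efna3, which encodes ephrin-A3, a lipid-anchored ligand known on hippocampal astrocytes facing spines, lies on chromosome 3 (89313899 to 89322965). It had 44.2, 42.2 and 48.7 CPM in Dicer1-ifKO and 52.6, 44.6 and 43.9 CPM in WT. WT replicate 1 stood highest and the other libraries mixed. On the log2 scale the difference was -0.05 (95% interval -0.21 to 0.10). On the opposite strand, Gm15998 shares 14.6% of the exon bases of Efna3, and since the strand setting of the counting is not known here, reads of these genes cannot be told apart.

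Efna5, which encodes ephrin-A5, a ligand known from axon mapping, had the lowest level per length of the representative transcripts (chromosome 17, 62604184 to 62881317). It had 5.0, 5.77 and 5.76 CPM in Dicer1-ifKO, from 77, 104 and 118 counts, and 5.11, 6.11 and 5.35 CPM in WT, from 60, 97 and 87 counts. The groups covered nearly the same range. Their log2 fold change was -0.0033, with the widest interval of the 10 members, -0.295 to 0.29.

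**Figure D1:**
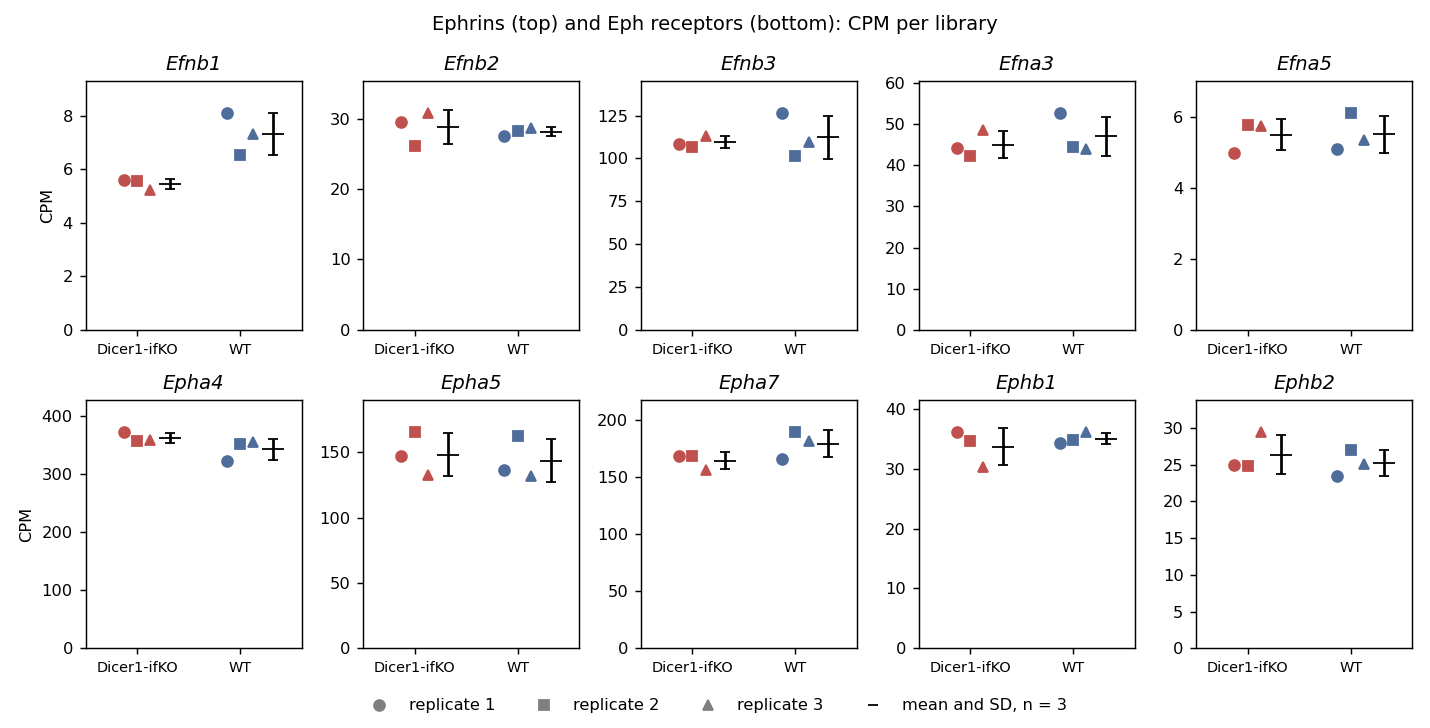
CPM (vertical axis, from 0, own scale per gene) of the 5 ephrins (top) and 5 Eph receptors (bottom) in each library, Dicer1-ifKO left of WT, with the mean and SD of 3 libraries beside the points. Efnb1 is lower in the 3 Dicer1-ifKO libraries (5.22 to 5.58 CPM) than in the 3 WT libraries (6.55 to 8.09 CPM), while 8 of the other panels overlap and Epha4 is separated narrowly.

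Among the receptors, Epha4 had the highest CPM of all members. It encodes EphA4, a receptor that binds ephrins of both classes and is known for the retraction of hippocampal spines (chromosome 1, 77367185 to 77515088). It had 372, 356 and 358 CPM in Dicer1-ifKO and 321, 351 and 354 CPM in WT. All Dicer1-ifKO values were above all WT values, by a narrow margin apart from WT replicate 1, which was lowest. Epha4 differed by 0.08 on the log2 scale (95% interval -0.016 to 0.18, SE 0.05, adjusted p 0.585 in edgeR), and by 0.04 both without WT replicate 1 and with a length offset per library.

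Epha5, which encodes EphA5, a receptor known from hippocampal projections, lies on chromosome 5 (84057791 to 84416921). It had 147, 165 and 132 CPM in Dicer1-ifKO and 136, 162 and 132 CPM in WT. The values spread widely within both genotypes, in the same order of replicate numbers, and the groups overlapped. On the log2 scale the difference was 0.04 (95% interval -0.11 to 0.20).

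Epha7, which encodes EphA7, a receptor known in dendrite and synapse development, lies on chromosome 4 (28813131 to 28967499). It had 169, 169 and 156 CPM in Dicer1-ifKO and 166, 189.7 and 182 CPM in WT. The lowest library was Dicer1-ifKO replicate 3, and WT replicate 1 lay below 2 of the Dicer1-ifKO libraries. Its log2 fold change was -0.13 (SE 0.05, 95% interval -0.23 to -0.017), with an unadjusted p of 0.0255 and an adjusted p of 0.390 in edgeR. It was -0.17 both without WT replicate 1 and with the length offset, and -0.08 without WT replicate 2.

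Ephb1, which encodes EphB1, a receptor of ephrin-B ligands, lies on chromosome 9 (101922128 to 102354693). It had 36.1, 34.6 and 30.3 CPM in Dicer1-ifKO and 34.2, 34.7 and 36.1 CPM in WT. Dicer1-ifKO replicate 3 was lowest and the others overlapped. This was a log2 fold change of -0.06 (95% interval -0.21 to 0.09). The opposite-strand gene Gm26846 shares 3.26% of its exon bases.

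Ephb2, which encodes EphB2, a receptor known to bind NMDA receptors at excitatory synapses, lies on chromosome 4 (136647539 to 136835988). It had 24.9, 24.8 and 29.4 CPM in Dicer1-ifKO and 23.4, 26.9 and 25.2 CPM in WT. Dicer1-ifKO replicate 3 was highest, and the other libraries mixed. This was a log2 fold change of 0.07 (95% interval -0.10 to 0.24).

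Counted together, 0 of the 10 members were called in edgeR, where 0.161% of all 17405 genes tested were (0.126% higher and 0.0345% lower in Dicer1-ifKO), and DESeq2 called 0 of the 4 to which it gave an adjusted p (Efnb3, Epha4, Epha5 and Epha7); to the other 6, Efnb1 among them, it gave none. Adjusted p for the 8 members other than Efnb1 and Epha7 lay between 0.585 and 0.995 in edgeR. An unadjusted p below 0.05 was reached by 2 members, Efnb1 and Epha7, both lower, against 10.4% of all genes (5.63% higher and 4.8% lower). The groups did not overlap in 2 members, Efnb1 and Epha4, against 16.1% of all genes (7.99% higher and 8.07% lower). Of the 10, 4 had a log2 fold change above 0, against 49% of all genes, and their median was -0.02 against -0.0032 over all genes. With 10 members, each of these counts lies within 2 genes of what the share over all genes would give. All 10 passed the filter on low counts. Summed over the ligands, Dicer1-ifKO libraries had 187 to 204 CPM and WT libraries 187 to 219.5 CPM (exact permutation p 0.6, two-sided; 0.1 is the smallest that 3 against 3 allows). Summed over the receptors, they had 706 to 749.8 CPM in Dicer1-ifKO and 681 to 764 CPM in WT (exact permutation p 0.7). These sums weigh the genes by level. In Dicer1-ifKO, Efnb3 had on average 110 of 194 CPM of the ligands and Epha4 362 of 735 CPM of the receptors.

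**Figure D2:**
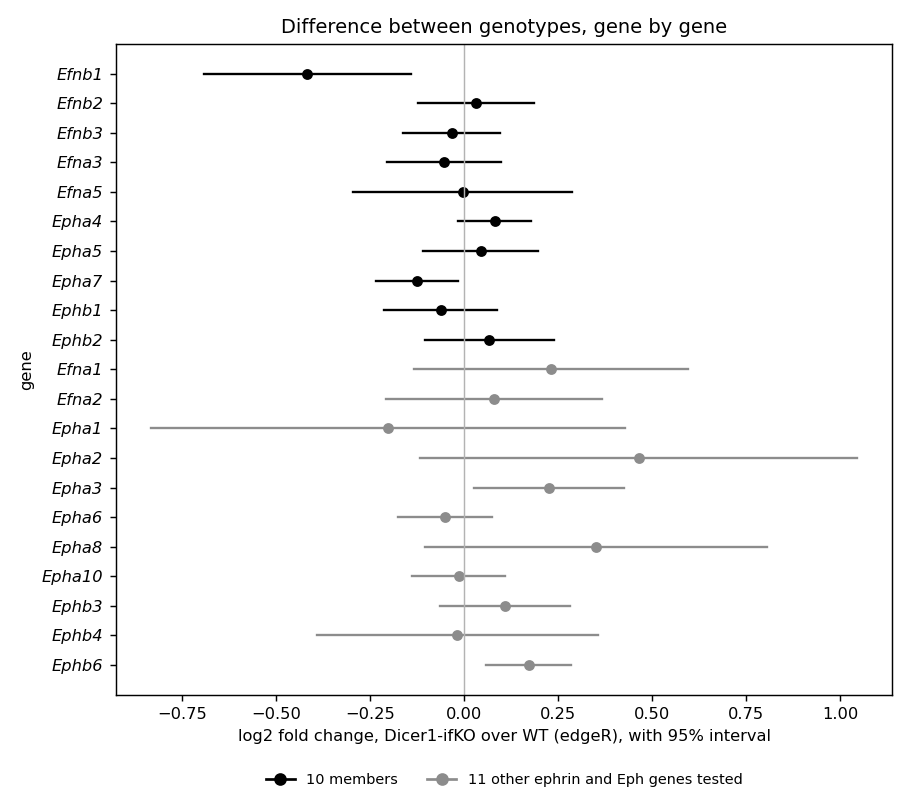
Log2 fold change of Dicer1-ifKO over WT (horizontal axis) with its 95% interval for the 10 members (black) and 11 other ephrin and Eph genes tested (grey), 1 gene per line. The interval of Efnb1 (-0.69 to -0.14) and that of Epha7 (-0.23 to -0.017) lie below 0, before any adjustment for the 17405 genes tested.

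Members differed far more from each other than between genotypes. Per length, as CPM per kilobase of exon of the representative transcripts, Epha4 was highest at 57.2 ± 1.34 in Dicer1-ifKO and 54.0 ± 2.84 in WT (SD, n = 3 each). Efnb3 followed at 34.4 ± 1.07 in Dicer1-ifKO and 35.3 ± 3.94 in WT, and Epha5 at 31.7 ± 3.56 in Dicer1-ifKO and 30.7 ± 3.49 in WT. The 6-library ranges of Efnb3 and Epha5 overlapped, so their order is not separated. Epha7 came next at 24.4 ± 1.05 in Dicer1-ifKO and 26.6 ± 1.75 in WT, ahead of Efna3 at 19.0 ± 1.41 in Dicer1-ifKO and 19.9 ± 2.05 in WT. Ephb1 had 7.21 ± 0.649 in Dicer1-ifKO and 7.50 ± 0.209 in WT, and Efnb2 6.01 ± 0.495 in Dicer1-ifKO and 5.88 ± 0.129 in WT. The lowest were Ephb2, Efnb1 and Efna5, at 2.42, 1.67 and 1.37 in Dicer1-ifKO and 2.31, 2.25 and 1.37 in WT.

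Ephb2 and Efnb1 overlapped in this order, and all remaining neighbours were apart. This order holds for the representative transcripts and changes with the transcript chosen. Over 6 libraries Epha7-001 averaged 25.5 CPM per kilobase and the shorter Epha7-003, of 2323 bases, 70.3, above the 55.6 of Epha4-201. Efna3-001 averaged 19.5 and Efna3-002 averaged 31.4. Ephb2-001, which includes the thinly covered long UTR, averaged 2.36, and Ephb2-003, of 3653 bases, averaged 5.39. Epha4 made up 30.9% of the members' summed level per kilobase in Dicer1-ifKO and 29.1% in WT.

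**Figure D3:**
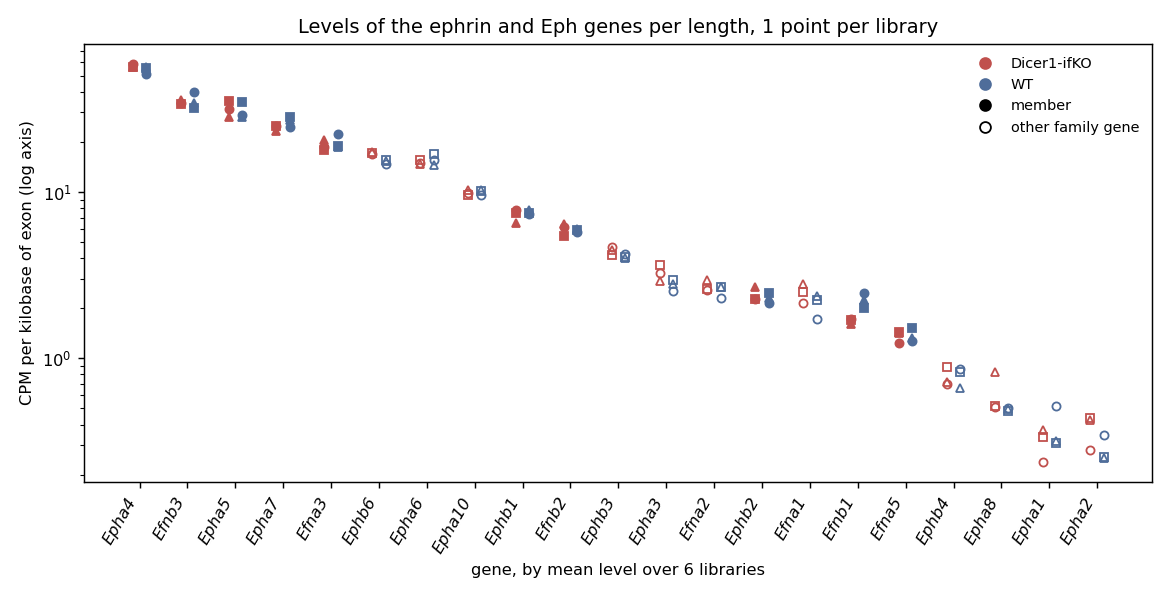
CPM per kilobase of exon of the representative transcripts (vertical log axis) of the 10 members (filled) and 11 other family genes (open) in each library, Dicer1-ifKO left of WT, ordered by the mean of 6 libraries. Epha4 is highest at 50.8 to 58.7, and Efna5 is the lowest member at 1.24 to 1.51.

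Transcripts of the same gene share exons and therefore reads, so their values are not independent. The members had 36 transcripts in the table, 34 with a mean count of at least 50, and none of these was called in a test of 60500 transcripts, where 0.0777% of transcripts were (lowest adjusted p 0.146 in edgeR, for Epha7-002). Epha7-002 (28813131 to 28947047) shares 71.2% of its annotated bases with the representative Epha7-001 and ends inside the gene, with 1830 annotated coding bases against 2994. Its counts were 1525, 1760 and 1887 in Dicer1-ifKO and 1254, 1805 and 1809 in WT. Normalised to library size, the difference was -0.22 on the log2 scale (SE 0.05, unadjusted p 0.000382 in edgeR). Relative to Epha7-001 that was 58.7%, 57.9% and 58.9% in Dicer1-ifKO against 64.1%, 59.9% and 61.2% in WT. The share was lower in every Dicer1-ifKO library (exact permutation p 0.1, two-sided, the smallest possible), with WT replicate 1 the farthest off and the other WT libraries still above all 3.

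Ephb1-002 (102039192 to 102354693) holds 5 annotated exons, shares 47.6% of its bases with Ephb1-001 and ends inside the gene. Its share of the Ephb1-001 count was 37.8%, 33.2% and 36.0% in Dicer1-ifKO and 27.6%, 28.7% and 31.0% in WT. All Dicer1-ifKO libraries were above all WT libraries, a difference of 6.54 percentage points (exact permutation p 0.1). Ephb1-002 itself had a log2 difference of 0.21 (SE 0.11, adjusted p 0.594 in edgeR), and Ephb1-001 in the same test -0.08 (SE 0.07).

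Of 24 member transcripts that were not the representative, 5 had shares that did not overlap between the genotypes. They were Ephb1-002 and Epha5-005, higher in Dicer1-ifKO, and Epha7-002, Epha7-006 and Ephb2-002, lower. Over all such transcripts of the table the percentage was 11.5% (7.7% higher and 3.84% lower). Epha5-005, annotated as retaining an intron, had 13.2% ± 1.00 in Dicer1-ifKO and 11.5% ± 1.13 in WT (SD, n = 3 each). Epha5-003, of the same kind, had 33.1% ± 1.18 in Dicer1-ifKO and 29.8% ± 2.41 in WT, with overlap. Epha7-006 had 6.44% ± 0.14 in Dicer1-ifKO and 7.05% ± 0.17 in WT, and Ephb2-002 had 89.2% ± 0.89 in Dicer1-ifKO and 90.3% ± 0.30 in WT.

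**Figure D4:**
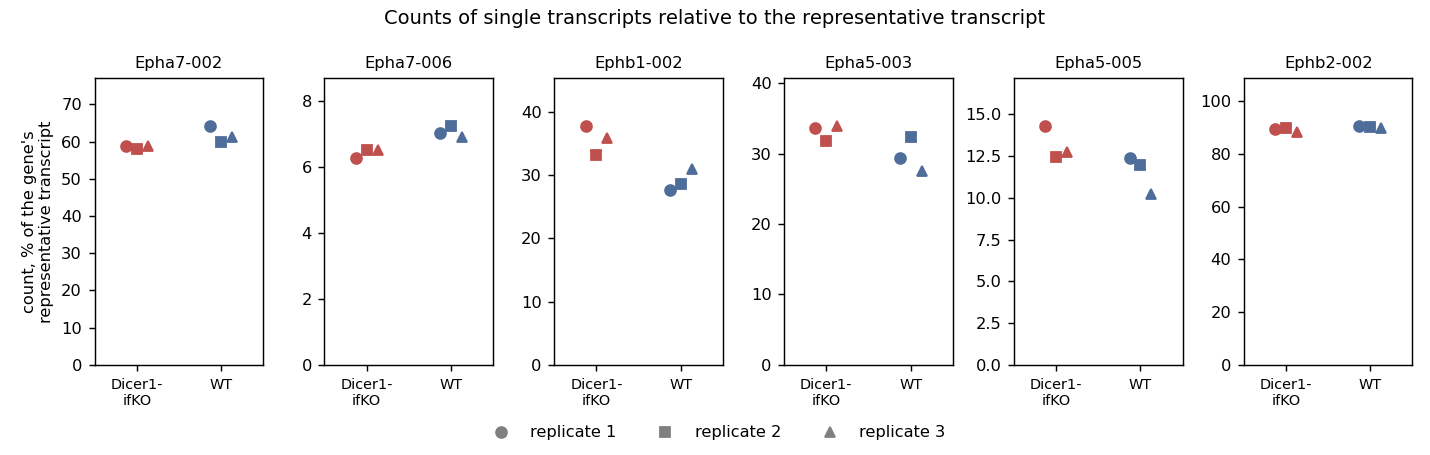
Count of each named transcript as a percentage of the count of its gene's representative transcript (vertical axis, from 0), 1 point per library, Dicer1-ifKO left of WT. Ephb1-002 lies at 33.2% to 37.8% in Dicer1-ifKO and 27.6% to 31.0% in WT; Epha5-003 overlaps.

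The other genes of the family were read in the same fit. Of 12, 11 passed the filter on low counts (Efna4, at 5 to 11 counts per library, did not). Among the 11, 0 were called, against 0.161% of all genes. A log2 fold change above 0 was found in 7, against 49% of all genes, and the median was 0.11 against -0.0032. The groups did not overlap in 2, Ephb6 and Epha8, both higher, against 16.1% of all genes (7.99% higher). Ephb6, a receptor whose kinase domain is inactive, had 63.3, 64.7 and 65.6 CPM in Dicer1-ifKO and 55.2, 58.6 and 58.0 CPM in WT. Its groups did not overlap, and it had a log2 difference of 0.17 (SE 0.05, adjusted p 0.230 in edgeR). Epha3, a receptor of ephrin-A ligands, had a log2 difference of 0.23 (SE 0.10, adjusted p 0.402 in edgeR). Epha2 and Epha8 had 0.46 (SE 0.28) and 0.35 (SE 0.22) at mean levels near 1 to 3 CPM. Without Dicer1-ifKO replicate 3, Epha8 was at 0.06, and so was the median of the list.

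Genes that carry or end the signal were read from lists of 45 genes, all tested. Of these, 0 were called, against 0.161% of all genes, and 7 had an unadjusted p below 0.05, against 10.4% of all genes. Their median log2 fold change was 0.01. Exchange factors and GTPase-activating proteins carry Eph activity to small GTPases. In that list, 6 of 10 were above 0 (median 0.05): Tiam1, a Rac exchange factor, had 0.17 (SE 0.06), Kalrn, the spine exchange factor kalirin, 0.12 (SE 0.05), Itsn1, an exchange factor scaffold, 0.10 (SE 0.05), and Chn1, the Rac-inactivating chimaerin downstream of EphA4, -0.10 (SE 0.04). Adjusted p for these lay between 0.274 and 0.514 in edgeR. Tiam1 was higher and Chn1 lower in every Dicer1-ifKO library. Over the 45 genes the groups did not overlap in 2 that were higher and 4 that were lower, against 7.99% and 8.07% of all genes. Without WT replicate 1, Tiam1 was at 0.10, Kalrn at 0.05 and Itsn1 at 0.05. With the length offset Tiam1 was at 0.11, Kalrn at 0.05 and Itsn1 at 0.02.

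Among adaptors and kinases, 10 of 14 were above 0 (median 0.03). Cdk5, a neuronal kinase that acts in EphA4 signalling, had 81.1, 79.2 and 82.4 CPM in Dicer1-ifKO and 94.4, 87.3 and 93.0 CPM in WT. The groups did not overlap, and Cdk5 had a log2 difference of -0.18 (SE 0.05, adjusted p 0.182 in edgeR, the lowest of the 45 genes). Nck1, an adaptor that links receptors to actin, had -0.23 (SE 0.09), Anks1, an adaptor of Eph receptors, 0.15 (SE 0.07), and Inppl1, a lipid phosphatase that limits receptor uptake, 0.20 (SE 0.10). Adjusted p for these 3 lay between 0.380 and 0.518 in edgeR. Inppl1 was at 0.08 without WT replicate 2.

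PDZ and membrane partners had 4 of 7 above 0 (median 0.0061), and none had an unadjusted p below 0.05. Pick1, a PDZ protein that binds Eph receptors and ephrin-B tails, had -0.10 (SE 0.06), Rgs3, which binds ephrin-B tails, 0.13 (SE 0.10), Pdzrn3 0.16 (SE 0.13) and Sdcbp, the PDZ protein syntenin, -0.04 (SE 0.05). In the list of cleavage and dephosphorylation, 3 of 5 were above 0, with Adam10, a protease that sheds ephrins, at 0.04 (SE 0.05), Ptpn13 at -0.09 (SE 0.09) and Acp1, a low-molecular-weight phosphatase, at -0.11 (SE 0.06). Adjusted p over these 7 genes lay between 0.554 and 0.835 in edgeR. Rgs3 was at 0.05 without Dicer1-ifKO replicate 1, and Pdzrn3 at 0.04 without Dicer1-ifKO replicate 2.

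GTPases and actin effectors had 3 of 9 above 0 (median -0.05). Cfl1, the actin-severing protein cofilin, had -0.10 (SE 0.05), Rac1 -0.10 (SE 0.05), Pak1, a kinase activated by Rac1, -0.09 (SE 0.05), and Rock1, a kinase activated by RhoA, 0.11 (SE 0.07). Adjusted p lay between 0.460 and 0.651 in edgeR. Cfl1 was at -0.06 without WT replicate 1. With the length offset Cfl1 was at -0.07, Rac1 at -0.08, Pak1 at -0.08 and Rock1 at 0.06. The summed level of the 9 genes was 1770 to 1829 CPM in Dicer1-ifKO and 1873 to 1888 CPM in WT. The groups did not overlap (exact permutation p 0.1, two-sided, the smallest possible). The sums of the other signalling partner lists overlapped between the genotypes (exact permutation p 0.2 to 0.9). Those of the ligands, the receptors and the other family genes overlapped too. How often sums of gene lists in general separate was not tested. Of the marker sums, those of astrocytes and granule cells were lower in every Dicer1-ifKO library and that of excitatory neurons was higher (exact permutation p 0.1 each). Each overlapped without 1 gene (Gfap, Calb1 and Camk2a, in that order). The part of these cell types in the summed level of the 9 genes was not tested.

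**Figure D5:**
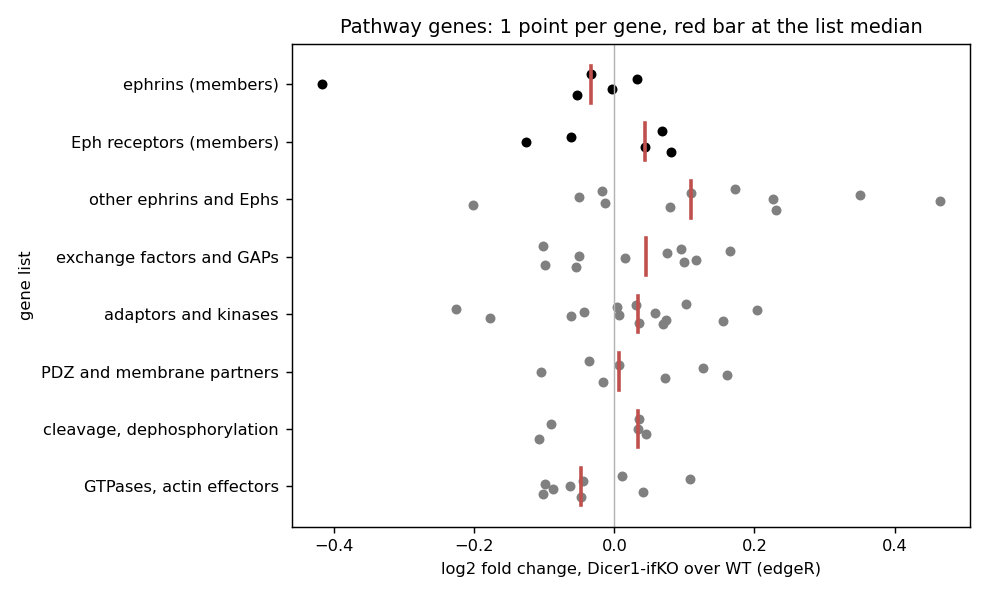
Log2 fold change of Dicer1-ifKO over WT (horizontal axis) of each gene in 8 lists (rows), with a red bar at each list's median. The 10 members are black; Efnb1 at -0.42 is the member farthest from 0, and list medians lie between -0.05 and 0.11.

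Excitatory and granule cell markers of the hippocampus were present, with Prox1 at 87.6 CPM in Dicer1-ifKO and 87.1 CPM in WT. Of the 5 granule cell markers, 4 had a log2 fold change below 0, and the list median was -0.12. Prox1 was at 0.007, C1ql2 at -0.07, Lct at -0.12 and Dsp at -0.14. Of the granule cell markers Calb1 was called lower (log2 fold change -0.27, SE 0.05, adjusted p 0.0323 in edgeR). It was no longer called without Dicer1-ifKO replicate 1 or 3, or without WT replicate 1 or 3 (adjusted p 0.0754 to 0.363 in edgeR). No gene of the other marker lists was called. Summed over each list, inhibitory neuron markers were at 607 to 652 CPM in Dicer1-ifKO and 589 to 642 CPM in WT. Oligodendrocyte markers were at 3566 to 4129.6 CPM in Dicer1-ifKO and 3425 to 4237 CPM in WT. Microglia markers were at 264 to 271 CPM in Dicer1-ifKO and 266 to 269.6 CPM in WT, and endothelial markers at 113 to 117 CPM in Dicer1-ifKO and 104 to 113 CPM in WT. Choroid plexus markers (3 of 5 tested) were at 20.1 to 34.0 CPM in Dicer1-ifKO and 26.3 to 39.3 CPM in WT, and thalamus and striatum markers at 49.9 to 60.5 CPM in Dicer1-ifKO and 48.6 to 58.4 CPM in WT. No tested marker was at 0 in any library.

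By the root mean square distance of centred log2 CPM over the 6 libraries, the genes most like Efnb1 were Gm2888, Fam122a and Gm17058 (0.0524, 0.0582 and 0.0587, against 0.229 for a flat gene). None of these 3 was called. They are the nearest of 17405 genes, so small distances follow from the choice. How small such a distance usually is was not tested.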

How the data were processed

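The deposited raw counts, per the file headers, are whole reads for each of 76938 transcripts in 6 hippocampal libraries; the values show that reads in shared exons were counted for each transcript. The deposited normalised signal equals the count times 1 factor per library and was not tested. The submitters' processing notes name TopHat2 2.0.6 with Bowtie2 2.0.5, SAMtools 0.1.18, CASAVA 1.8.2 and, with no version, DESeq2, on GRCm38. The sources used here do not give the counter or its strand setting. A count of 3 equals 0.145 to 0.254 CPM.

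Each symbol's transcript with the highest mean count entered edgeR 4.0.16 in R 4.3.3 (TMM, filterByExpr with minimum count 10, quasi-likelihood F-test on genotype, Benjamini-Hochberg adjustment over 17405 genes, threshold 0.05, prior count 0.125). SE and intervals come from the F statistic; the common biological coefficient of variation was 0.0464. Pairs of libraries within a genotype had chi-square per degree of freedom of 1.75 to 4.31, so each counted as 1 replicate. The test was checked on simulated data. Alternatives were DESeq2 1.42.0, RLE scaling, no filter, summed transcripts, a replicate block, a length offset (lowess of library deviation on log2 length), a test of every transcript and leaving out each library.

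Lengths, exons and 3′ UTRs come from GENCODE M21 (GRCm38) by identical coordinates, or, for Epha5-001 and Efnb2-001, the same-symbol transcript overlapping at least 0.9 of the joint span; 93.1% of symbols with a count had a length. Identical ends do not show that the exons counted were the same. UTRs under 50 nt were left out. MicroRNA sequences are from RefSeq (GRCm38.p6); miR-124-3p was not analysed here. Named genes were Dicer1, all 10 members, up to 4 genes with the smallest p of each other list (1 of these is not reported here), member transcripts with a mean count of at least 50, and the 3 genes nearest to Efnb1; Camk2a, Calb1, Prox1, Gfap, Slc1a3 and Aldh1l1 were named after their values were seen. Members, lists and tests were chosen with earlier results of these data known.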

Additional observations from a re-analysis of the deposited data

How the results depend on the processing

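No member, other family gene or signalling partner was called under any alternative run, but DESeq2 gave no adjusted p to 6 of 10 members, 9 of 11 other family genes and 17 of 45 partners, which it could therefore not call. Over 14 alternatives each, Efnb1 kept a log2 fold change of -0.49 to -0.35 (lowest adjusted p 0.133, without WT replicate 2), Epha7 -0.20 to -0.08 and Epha4 0.016 to 0.11. The sign of the other members turned with the processing; the causes were not tested. When each library was left out in turn, Efnb2 ran from -0.0207 to 0.098, Efnb3 from -0.0999 to 0.0546, Efna3 from -0.1164 to 0.0288, Efna5 from -0.047 to 0.0785, Epha5 from -0.0429 to 0.1439, Ephb1 from -0.1123 to 0.0131 and Ephb2 from -0.0234 to 0.1203. Efna5 was also 3e-04 with no filter, 0.0184 with summed transcripts and 0.001 with the replicate block. With the length offset Ephb2 was -9e-04 and Dicer1 -0.0225; leaving out WT replicate 1 as well, Efnb3 was 0.0564, Efna3 0.0396, Epha5 -0.0025, Ephb2 -0.0061, Dicer1 -0.0109 and Sdcbp 4e-04. Calb1 was not called with summed transcripts (adjusted p 0.253), the replicate block (0.0679), or the length offset without WT replicate 1 (0.0892). The marker sums without Camk2a, Calb1 or Gfap were chosen after seeing the data.

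The number of genes called over the whole table was 28, and 55 with DESeq2, 151 with no filter, 7 with summed transcripts, 16 with the length offset and without WT replicate 1, and 6 to 105 when each library was left out: 6 without Dicer1-ifKO replicate 1, 18 without replicate 2, 26 without replicate 3, and 18, 105 and 14 without WT replicates 1, 2 and 3. Same-numbered libraries deviated together at r of -0.087 to 0.021, which does not test pairing gene by gene. Epha5 was highest in replicate 2 and lowest in replicate 3 of both genotypes. Its SE was 0.047 with the replicate block and 0.073 without. The replicate block gave 22 calls and 5 members above 0. At 77 to 118 counts in Dicer1-ifKO and 60 to 97 in WT, Efna5 had a 95% interval of -0.295 to 0.29 on the log2 scale.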
